A study of Homo sapiens with 9 samples.

Results

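The genes described here encode proteins of the mitochondrial ribosome and were chosen as the protein-coding genes whose symbols begin with MRPL (large subunit) or MRPS (small subunit) and a number. In all, 78 of the 60880 gene IDs met this rule, 49 MRPL and 29 MRPS genes, and 79 pseudogenes and 7 non-coding genes with like symbols were left out. Poly(A) RNA of SNU5, an established human gastric carcinoma cell line, was sequenced in 3 groups of 3 libraries each. NR cells received gold nanorods and SP cells gold nanospheres, both coated with PEG and carrying ramucirumab, an antibody to the VEGF receptor KDR. Ab cells received the free antibody. An exposure to 8 μg/mL of antibody for 24 h is taken here for every library. The paper gives this dose and time for its viability assays, and its RNA methods state neither. The groups share the cell line, the antibody and, as taken here, its dose. No untreated library was analysed here, and both particle comparisons use the same 3 Ab libraries.

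The mitochondrial ribosome is built in the mitochondrial matrix from 2 rRNAs that the mitochondrial genome encodes and from a large set of proteins that are encoded in the nucleus, made in the cytosol and imported. It translates the few mRNAs of the mitochondrial genome, all of which code for membrane subunits of the respiratory chain and of ATP synthase. Its large subunit forms peptide bonds and holds the exit tunnel, and its small subunit binds and decodes the mRNA.

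The NR libraries held between 13863155 and 25735410 counts, the SP libraries between 20601906 and 22914759 and the Ab libraries between 19566064 and 26318227. Levels are given as CPM (counts scaled to a common library total), or as TPM (which also divides by exon length) where genes are compared with each other. The study speaks of biological replicates, but the labels do not say whether the libraries of a group came from separate cultures. If they did not, the p-values measure only technical spread.

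The Ab libraries stood apart from the particle libraries well beyond the genes of the mitochondrial ribosome. In NR against Ab, 36.4% of the 15009 genes tested were higher and 36.4% lower at an adjusted p of at most 0.05 (edgeR's quasi-likelihood test, Benjamini-Hochberg adjustment over all genes tested). In SP against Ab the shares were 36.4% and 36.6% of 15068 genes, whereas NR and SP differed in 0.443% of 14903 genes. Cell type markers also moved. KRT8, a keratin of simple epithelia, lay at 1856 to 2037 CPM in the 6 particle libraries and at 637 to 666 CPM in the Ab libraries. The adhesion protein CDH1 lay at 5.52 to 7.23 CPM against 0.190 to 0.428 CPM, EPCAM at 3.95 to 6.20 CPM against 1.48 to 1.66 CPM, and KRT19 had 0 counts in 7 of the 9 libraries and 1 in the others. The matrix proteoglycan LUM, a fibroblast marker, lay at 37 to 38.9 CPM in the particle libraries and at 0.912 to 0.951 CPM in Ab, and DCN at 19.5 to 21.8 CPM against 0.333 to 0.798 CPM. Summed over the 6 fibroblast markers, the particle libraries held 106 to 119 CPM and the Ab libraries 17.7 to 45.3 CPM. Of the 6 markers 3, LUM, DCN and PDGFRB, were higher at adjusted p in each particle group. COL1A2 lay at 1.44, 0 and 0 CPM in NR, 2.26, 2.14 and 2.09 CPM in SP and 10.1, 10.6 and 1.57 CPM in Ab, and it, COL1A1 and COL3A1 did not pass the test. The 4 endothelial markers summed to 20.8 to 24.2 CPM and 3.53 to 5.04 CPM, nearly all of it CDH5, while TEK and ERG had at most 3 counts in any library. The 7 leukocyte markers summed to at most 3.2 CPM, with LYZ at 0 throughout. No gene had at least 100 counts in all 6 particle libraries and at most 3 in all Ab libraries, nor the reverse. The part of these differences in the results below was not tested, and in whole-culture RNA fewer cells of a kind and less RNA per cell cannot be told apart.

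Promoters of 69 members were found among the RefSeq windows (GRCh38.p14) that run from 250 bases before to 50 bases after each gene's start. Motifs of factors linked to nuclear genes of mitochondria, and some common promoter motifs, were searched on both strands. The core CCGGAAG, bound by ETS factors such as GABP, was in 42.0% of the members' windows and in 10.7% of all 27305 windows. The core AAGATGGC, bound by YY1, was in 29.0% and 3.03%, and the core CGCANGCG, bound by NRF1, in 18.8% and 10.6%. Large and small subunit genes held the ETS core at similar shares, 17 of 42 and 12 of 27, and the NRF1 core in 10 of 42 and 3 of 27. The NRF1 core was present in 9 of the 34 windows of members that were higher in NR than in Ab and in 0 of the 20 windows of members that were lower. The ETS core was present in 13 of 34 and 10 of 20. Windows were found for 34 of the 41 higher and 20 of the 21 lower members, and these splits by direction were not tested. The E-box CACGTG was in 8.70% of the members' windows against 7.43% of all windows, CCAAT in 29.0% against 35.7%, and the cAMP response element TGACGTCA in none of the members and in 1.98% of all windows. A match describes these letters only. The 27305 windows outnumber the 15009 genes tested in NR against Ab, so they include genes that were not tested. No share over tested genes was taken. The 160 bases before the start are shown 5′ to 3′ for the 2 largest rises and the 2 largest falls in NR among members that share no exon bases with other genes, with NRF1 and ETS cores in capitals. Outside these stretches, MRPS33 also holds an ETS core directly at its start and MRPL58 a further one upstream.
MRPL36, chr5:1799838-1799997, minus strand: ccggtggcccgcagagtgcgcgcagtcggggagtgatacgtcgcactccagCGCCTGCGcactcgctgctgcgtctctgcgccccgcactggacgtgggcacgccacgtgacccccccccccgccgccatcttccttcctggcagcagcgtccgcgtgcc
MRPS33, chr7:141014953-141015112, minus strand: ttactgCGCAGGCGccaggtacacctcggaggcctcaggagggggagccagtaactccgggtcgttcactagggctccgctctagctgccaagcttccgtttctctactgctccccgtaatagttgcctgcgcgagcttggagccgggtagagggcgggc
MRPS10, chr6:42217862-42218021, minus strand: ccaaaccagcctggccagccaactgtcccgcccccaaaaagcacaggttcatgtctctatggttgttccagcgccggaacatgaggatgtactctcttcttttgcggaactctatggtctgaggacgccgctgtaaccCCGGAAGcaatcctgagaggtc
MRPL58, chr17:75012510-75012669, plus strand: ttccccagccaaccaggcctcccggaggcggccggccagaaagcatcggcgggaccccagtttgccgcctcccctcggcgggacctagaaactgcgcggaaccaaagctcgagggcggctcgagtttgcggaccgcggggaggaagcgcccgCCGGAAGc

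The genes of the mitochondrial ribosome were expressed well above the median gene, with a wide spread among them. Over the 9 libraries the median level was 83.5 TPM for the 49 large subunit genes and 44.1 TPM for the 29 small subunit genes, and 16.9 TPM for all genes tested in NR against Ab. In all, 46 large and 21 small subunit genes lay above that last value. The highest of the large subunit were MRPL3, with a bacterial counterpart, with 294 TPM, MRPL37 with 283 TPM and MRPL24, near the exit of the tunnel, with 262 TPM. The highest of the small subunit were MRPS34 with 504 TPM, MRPS35 with 278 TPM and MRPS10, a protein of the subunit's head, with 240 TPM, although 31.2% of the exon bases of MRPS34 lie in other genes too. At the low end of the large subunit stood MRPL38 (1.53 TPM), MRPL46 (1.55 TPM) and MRPL12 (9.55 TPM), and of the small subunit MRPS18C (2.34 TPM) and MRPS28 (2.99 TPM), beside MRPS18B, which was listed at 0.214 TPM and is described apart. These low levels need care: of the 8 members with a library under 100 counts, all but MRPS18B share over 10% of their exon bases with other genes, as do 29 of all 78, and how the counting treated shared bases is not stated. With each gene's canonical transcript as its length, the 3 highest of the large subunit were MRPL24 (298 TPM), MRPL20 (296 TPM, 126 TPM by exon union) and MRPL37 (289 TPM), and those of the small subunit were MRPS15, MRPS34 and MRPS30.

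MRPS18B, a small subunit protein and 1 of 3 human proteins related to bacterial S18, could not be tested. Its counts were 1, 2 and 1 with nanorods, 2, 0 and 1 with nanospheres and 4, 4 and 3 with free antibody, where up to 3 counts is the limit that a count of 0 allows. Its gene lies at chr6:30585617-30594172 (GRCh37) in the major histocompatibility region, and 8 of the 14 other coding genes that start within 150000 bases of its start had at most 5 counts in every library, where 32.9% of all coding genes had. TUBB, a beta-tubulin of dividing cells, had 1 to 7 counts there and FLOT1 0 to 4, whereas MDC1 had 110 to 288 and DHX16 70 to 354. Its counts were not read as a level of the gene. The relatives MRPS18A, which sits in the large subunit in structures despite its symbol, and MRPS18C did not pass the test in either particle group. MRPS18A lay at 22.3, 22.4 and 22.8 CPM in NR, 23.2, 22.2 and 21.8 CPM in SP and 22.2, 22.2 and 24.2 CPM in Ab, groups that overlapped fully. MRPS18C lay at 2.40 to 3.8 CPM over all libraries.

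In NR against Ab 62 of the 77 members tested passed the test in either direction, where 72.7% of all genes did, and rises and falls are counted here by subunit. Of 49 large subunit genes 30 were higher in NR, 11 lower and 8 did not pass the test, and their median log2 fold change was 0.19. Of 28 small subunit genes tested 11 were higher, 10 lower and 7 did not pass, with a median of -0.04. The median of all genes tested was -0.01, and the share of genes called was 36.4% in each direction, so the large subunit's 30 of 49 higher stood above the background and the small subunit's 11 of 28 near it. Most changes were small. Only MRPS14 and MRPS33 rose at least 2-fold, where 12.4% of all genes tested did, and MRPL38, MRPL53 and MRPS10 fell at least 2-fold, where 10.3% did.

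Nanospheres gave like counts against the same Ab libraries, with 60 of 77 members past the test, where 73.0% of all genes were. Of the large subunit genes 29 were higher and 11 lower, with a median of 0.23, and of the small subunit genes 10 were higher and 10 lower, with a median of -0.07. The background was 36.4% higher and 36.6% lower, with a median over all genes of -0.01. The 2-fold limit was passed upward by MRPS14 and MRPS33, where 12.6% of all genes passed it, and downward by MRPL38, MRPL53 and MRPS10, where 10.6% did. As both comparisons rest on the same Ab libraries, the second is no independent repeat of the first.

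Among the small subunit genes the largest rise was that of MRPS14, a protein of the subunit's head with a bacterial counterpart. It lay at 30.7, 25.5 and 28 CPM in NR, at 26.1, 28.3 and 27.4 CPM in SP and at 11.2, 11.9 and 11.9 CPM in Ab. Every particle library was above every Ab library. The log2 fold change was 1.25 ± 0.09 (SE, edgeR adjusted p = 4.71e-13) for NR and 1.20 ± 0.08 (edgeR adjusted p = 5.88e-13) for SP. The gene lies at chr1:174979925-174992561 (GRCh37), the build of every gene position below, and another gene covers 14.9% of its exon bases. MRPS33, a head protein found only in mitochondrial ribosomes, lay at 28.2, 24.7 and 24.2 CPM in NR, 26.0, 26.0 and 25 CPM in SP and 12.7, 11.6 and 12 CPM in Ab. Again no particle library overlapped an Ab library, with log2 fold changes of 1.08 ± 0.09 (edgeR adjusted p = 1.45e-11) and 1.07 ± 0.09 (edgeR adjusted p = 7.93e-12). MRPS33 lies at chr7:140702410-140715028 and shares no exon bases with another gene. The third rise, of MRPS28, rested on 23 to 48 counts in NR and SP libraries and 10 to 29 in Ab. Its log2 fold changes of 0.95 ± 0.33 and 0.97 ± 0.34 passed in edgeR (adjusted p = 0.0133 and 0.0120) but not in DESeq2 (adjusted p = 0.0874 and 0.0601). Without Ab replicate 2, its lowest library, the edgeR values were 0.52 (adjusted p = 0.142) and 0.54 (adjusted p = 0.128).

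MRPS10 showed the largest fall among members with no shared exon bases. This head protein, at chr6:42174545-42185599, lay at 98.1, 86.7 and 92.9 CPM in NR, 99.1, 94.5 and 98.6 CPM in SP and 206, 205 and 209 CPM in Ab. The 2 sets of libraries were far apart compared with the spread within them. The level fell by 1.18 ± 0.05 on the log2 scale in NR (edgeR adjusted p = 3.08e-18) and by 1.11 ± 0.05 in SP (edgeR adjusted p = 1.37e-17). MRPS30, which structures place in the large subunit, also fell, from 204 to 206 CPM in Ab libraries to 182 to 187 CPM in NR libraries and 182 to 196 CPM in SP libraries. Its log2 fold changes were -0.18 ± 0.04 (edgeR adjusted p = 0.000556) and -0.13 ± 0.05 (edgeR adjusted p = 0.0103), and the second was no longer past the threshold with a length and GC trend removed (adjusted p = 0.200) or without SP replicate 3 (adjusted p = 0.0887). MRPS35 fell by 0.22 in both comparisons (SE 0.05, edgeR adjusted p = 9.35e-05 and 0.000262), and MRPS34, the highest by exon union length, was not past the test at -0.03 and -0.09.

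In the large subunit the largest rise was that of MRPL36, a very small protein with a bacterial counterpart, at chr5:1798499-1801480. It lay at 46.7, 41.8 and 36.9 CPM in NR, 39.8, 41.7 and 41.5 CPM in SP and 23.6, 20.8 and 21.6 CPM in Ab, with log2 fold changes of 0.91 ± 0.08 (edgeR adjusted p = 1.21e-10) and 0.88 ± 0.07 (edgeR adjusted p = 1.67e-11). MRPL24, at chr1:156707095-156711382, lay at 148, 143 and 135 CPM in NR, 145, 133 and 133 CPM in SP and 80.0, 78.5 and 78.8 CPM in Ab. For both genes the lowest particle library was above the highest Ab library. MRPL24 rose by 0.82 ± 0.05 in NR (edgeR adjusted p = 1.40e-14) and by 0.76 ± 0.05 in SP (edgeR adjusted p = 4.15e-13). MRPL41, found only in mitochondrial ribosomes and at chr9:140446331-140447007, was the second largest rise of the large subunit in SP, at 43.1, 39.6 and 41.3 CPM against 25.9, 22.6 and 22.2 CPM in Ab (0.79 ± 0.07, edgeR adjusted p = 2.52e-10). In NR it lay at 38.6, 37.7 and 37.8 CPM (0.67 ± 0.07, edgeR adjusted p = 4.05e-09). MRPL3 and MRPL37, the highest of this subunit by exon union length, rose by 0.36 and 0.39 in NR and by 0.38 and 0.39 in SP (SE 0.04 for MRPL3 in NR and 0.05 for the others, edgeR adjusted p from 1.09e-08 to 4.98e-08). MRPL45, which holds the ribosome at the inner membrane, was near 0 at 0.11 ± 0.06 and 0.08 ± 0.06 (edgeR adjusted p = 0.104 and 0.25).

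Of the 11 large subunit genes that were lower in NR, 8 share no exon bases with other genes. MRPL58, a peptidyl-tRNA hydrolase that became part of the ribosome and takes part in the rescue of stalled ribosomes, lay at 36.2, 31.9 and 32.7 CPM in NR, 38.0, 34.0 and 34.2 CPM in SP and 62.9, 56.6 and 60.0 CPM in Ab. It fell by 0.85 ± 0.07 (edgeR adjusted p = 3.69e-12) and by 0.78 ± 0.07 (edgeR adjusted p = 2.60e-11), and its libraries did not overlap. MRPL32, whose maturation by the m-AAA protease is a step in ribosome assembly, lay at 66.6, 63.3 and 61.9 CPM in NR, 64.1, 60.6 and 62.1 CPM in SP and 105, 105 and 111 CPM in Ab. It fell by 0.77 ± 0.05 (edgeR adjusted p = 2.87e-13) and by 0.81 ± 0.06 (edgeR adjusted p = 4.24e-13). The 2 genes of that protease, AFG3L2 and SPG7, were at -0.08 (edgeR adjusted p = 0.204) and -0.17 (edgeR adjusted p = 0.00323) in NR. In SP they were at -0.03 (edgeR adjusted p = 0.579) and -0.16 (edgeR adjusted p = 0.0100). MRPL49, with 11.6% of its exon bases shared, lay at 114, 113 and 112 CPM in NR, 102, 110 and 111 CPM in SP and 186, 173 and 182 CPM in Ab, and fell by 0.70 ± 0.05 (edgeR adjusted p = 1.30e-13) and by 0.77 ± 0.05 (edgeR adjusted p = 1.64e-13). MRPL1, MRPL50, MRPL52, MRPL39, MRPL10 and MRPL48 fell by smaller amounts, from 0.53 for MRPL1 (edgeR adjusted p = 0.00117) to 0.16 for MRPL48 (edgeR adjusted p = 0.0276) in NR, and share no exon bases. The fall of MRPL48 in NR, where the libraries overlapped, was lost in DESeq2 (adjusted p = 0.0864) and without NR replicate 2, NR replicate 3, Ab replicate 2 or Ab replicate 3 in turn. These 7 genes were named after their values were seen. The 2 other falls were at low counts and on genes that overlap others. MRPL53, with 99.4% of its exon bases shared, lay at 4.16, 4.18 and 4.77 CPM in NR, 3.55, 4.28 and 4.51 CPM in SP and 11.1, 10.9 and 8.99 CPM in Ab. MRPL38, with 45.1% shared, had 9 to 10 counts with nanorods, 16 to 20 with nanospheres and 51 to 63 with free antibody. Their fitted changes were -1.28 ± 0.14 and -2.36 ± 0.31 in NR (edgeR adjusted p = 3.20e-09 and 1.09e-07), and reads of these genes and of their neighbours cannot be told apart. MRPL12, which also binds the mitochondrial RNA polymerase, had 69.5% of its exon bases shared and did not pass the test (-0.10 ± 0.20, edgeR adjusted p = 0.662 in NR, -0.32 ± 0.22, edgeR adjusted p = 0.192 in SP). Without SP replicate 2 its fall against Ab was -0.63 (edgeR adjusted p = 0.0237). MRPL46, at 2.05 to 3.90 CPM, was higher in NR by 0.54 ± 0.20 (edgeR adjusted p = 0.0200), a call that was lost in DESeq2 (0.55, adjusted p = 0.101), without NR replicate 2 (0.41, edgeR adjusted p = 0.0998) and without Ab replicate 2 (0.48, edgeR adjusted p = 0.0733). In SP it was at 0.15 ± 0.21 (edgeR adjusted p = 0.535).

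**Figure D1:**
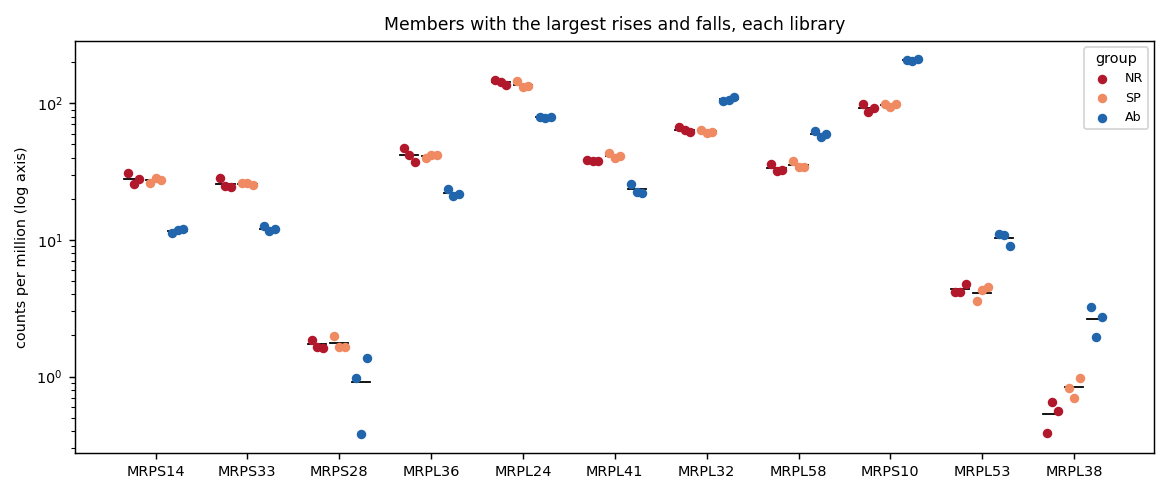
CPM on a log axis in each library (dots) with the group mean (bars) for the 11 members with the largest rises and falls. MRPS14, MRPS33, MRPS28, MRPL36, MRPL24 and MRPL41 lie higher in NR and SP than in Ab and the other 5 lower, with no overlap between particle and Ab libraries.

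Summed over members, large subunit genes took more of the library in the particle groups, and the small subunit genes' shares of the library total overlapped between groups. Large subunit genes held 0.305%, 0.290% and 0.289% of the counts of NR libraries, 0.297%, 0.288% and 0.293% of those of SP libraries and 0.264%, 0.259% and 0.262% of those of Ab libraries, so that the particle and Ab libraries did not overlap. Small subunit genes held 0.198% ± 0.002 (SD, n = 3) in NR, 0.195% ± 0.003 in SP and 0.198% ± 0.004 in Ab, with overlapping libraries. The ratio of the 2 sums was 1.49 ± 0.03 in NR, 1.5 ± 0.01 in SP and 1.32 ± 0.01 in Ab (SD, n = 3). Per length, the large subunit sum was 4882 ± 114 TPM in NR, 4907 ± 85.4 TPM in SP and 4636 ± 13.8 TPM in Ab. The small subunit sum was 2617 ± 28, 2594 ± 35.3 and 2954 ± 45.8 TPM, here lower in every particle library than in any Ab library, and the ratio was 1.87, 1.89 and 1.57. These sums are descriptions without a test. The direction of the small subunit share of the library total turned on whether MRPS10 or MRPS27 was left out, and that of its TPM sum did not. The gap in TPM was smaller without MRPS10, with means of 2457 in NR, 2424 in SP and 2565 in Ab. Without MRPS10 the small subunit share ran from 0.187% to 0.190% in NR libraries, from 0.183% to 0.189% in SP libraries and from 0.175% to 0.181% in Ab libraries, higher in every particle library, and the ratio was 1.56, 1.58 and 1.48. Without MRPS27 the share was 0.173% to 0.178%, 0.171% to 0.177% and 0.182% to 0.188%, lower in every particle library, and the ratio was 1.68, 1.69 and 1.42. Without both, the libraries overlapped in share and the ratio was 1.77, 1.79 and 1.60. Of the TMM-scaled total, all small subunit genes held 0.1900% to 0.1972% in SP libraries and 0.1974% to 0.2056% in Ab libraries, without overlap. NR libraries, at 0.194% to 0.199%, overlapped those of Ab. On this scale SP and Ab libraries overlapped without MRPS10 (0.181% to 0.187% against 0.177% to 0.185%). The small subunit TPM sum without MRPS10 ran from 2434 to 2473 in NR libraries, from 2397 to 2461 in SP libraries and from 2523 to 2623 in Ab libraries, and it was lower in every particle library than in any Ab library without MRPS10, without MRPS27 and without both. The largest gains in CPM in NR were those of MRPL24 and MRPL3 in the large subunit and MRPS27 in the small subunit, and the largest losses were those of MRPL49 and MRPS10, MRPS27 being named after its value was seen. With MRPS18A and MRPS30 counted in the large subunit and MRPS36 in neither, as in structures, the ratio of shares was 1.81 in NR, 1.83 in SP and 1.65 in Ab.

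**Figure D2:**
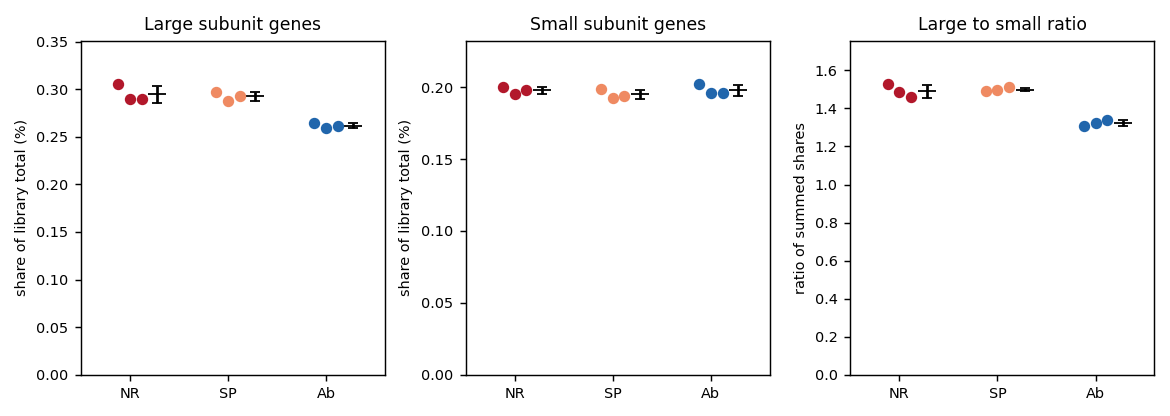
Share of the library total in percent taken by the 49 large (left) and 29 small subunit genes (middle) and their ratio (right), with 1 dot per library and the mean ± SD (n = 3) beside each group. The large subunit dots of NR and SP lie above those of Ab, and the small subunit dots overlap.

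The members were also grouped by whether the protein has a bacterial counterpart or is found only in mitochondrial ribosomes. These classes were drawn up after the values had been seen and are described without a test, beside 36.4% of all genes higher and 36.4% lower in NR and 36.4% and 36.6% in SP. Of 30 large subunit genes with a bacterial counterpart 21 were higher and 3 lower in NR than in Ab (median log2 fold change 0.29), whereas of 19 found only in mitochondria 9 were higher and 8 lower (median 0.16). In the small subunit the counts were 8 higher and 3 lower of 16 (median 0.21) and 2 higher and 6 lower of 9 (median -0.27), the 2 being MRPS33 and MRPS27. In SP the 4 classes gave 21 and 3, 8 and 8, 8 and 3, and 2 and 6, with medians of 0.29, 0.11, 0.20 and -0.22. MRPS18A, MRPS30 and MRPS36 were placed in no class.

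**Figure D3:**
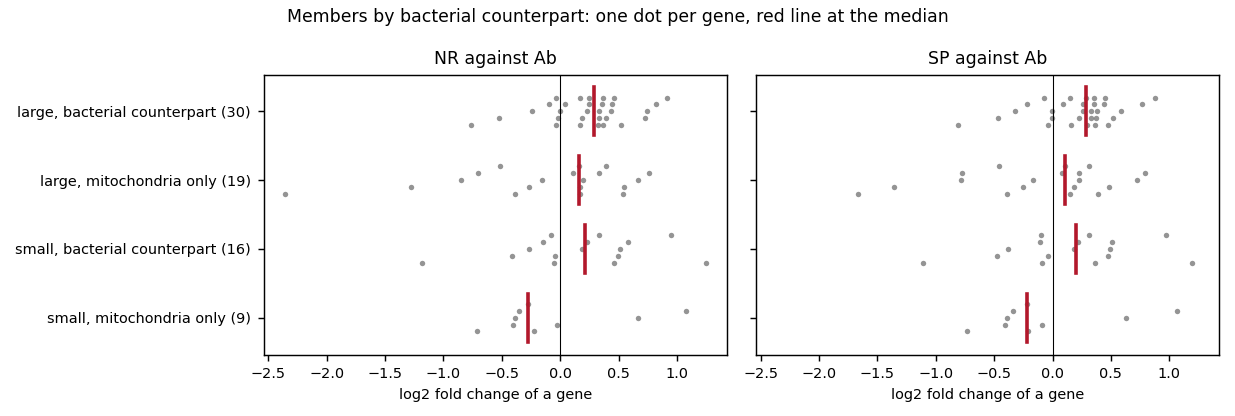
Log2 fold change (x axis) of each member (dots) by subunit and by bacterial counterpart (rows, with the number tested), in NR against Ab and SP against Ab, with the median as a red line. The medians are above 0 in 3 of the rows and below 0 for the small subunit genes found only in mitochondria.

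Particle shape made no detectable difference to any member. Of the 77 members tested 0 passed the adjusted p in NR against SP in edgeR, where 0.443% of all genes passed. DESeq2 gave an adjusted p for 31 of them, of which 0 passed and the lowest was 0.290, and none for MRPL23 and MRPL33. At an unadjusted p under 0.05 there were 4, MRPL19, MRPL23, MRPL33 and MRPS21, where 12.9% of all genes passed. The members' medians were 0.01 for the large and 0.02 for the small subunit, and 75 of 77 lay within 0.25 of 0 on the log2 scale, with a median SE of 0.06. MRPL23, a protein near the tunnel exit, had the smallest p. It lay at 25.6, 24.1 and 25.6 CPM in NR and at 20.8, 22.4 and 22.0 CPM in SP, without overlap, a log2 difference of 0.21 ± 0.07 (edgeR adjusted p = 0.198). MRPL33 differed by 0.16 ± 0.06 (edgeR adjusted p = 0.259) and MRPL19 by -0.12 ± 0.05 (edgeR adjusted p = 0.313).

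The 5 further proteins of the mitochondrial ribosome that carry other names moved in both directions. CHCHD1, of the small subunit, lay at 65.7, 63.4 and 63.0 CPM in NR, 59.3, 65.0 and 61.5 CPM in SP and 41.2, 37.6 and 38.8 CPM in Ab (0.68 ± 0.06 in NR, edgeR adjusted p = 5.15e-11). GADD45GIP1, of the large subunit, was also higher, by 0.51 ± 0.05 in NR (edgeR adjusted p = 4.45e-10) and by 0.42 ± 0.05 in SP (edgeR adjusted p = 5.34e-08). PTCD3 and DAP3, of the small subunit, were lower in NR by 0.40 and 0.15 (edgeR adjusted p = 1.68e-08 and 0.00394), and AURKAIP1 was at -0.07 (edgeR adjusted p = 0.169). Over all genes tested, 36.4% were higher and 36.4% lower in NR, and 36.4% and 36.6% in SP. Of the genes for assembly of the ribosome and modification of its rRNA, 7 of 28 tested were higher and 13 lower in NR, and 9 and 11 in SP, with medians of -0.10 and -0.04. NGRN, which binds the large rRNA, was lower by 0.78 ± 0.06 in NR (edgeR adjusted p = 7.32e-13), and TRMT2B, an RNA methyltransferase, higher by 0.77 ± 0.06 (edgeR adjusted p = 4.72e-12). Of 17 mitochondrial translation factors 8 were higher and 6 lower in NR, among them OXA1L, which inserts nascent chains into the inner membrane (0.56 ± 0.05, edgeR adjusted p = 1.45e-11), and TACO1, an activator of COX1 translation (-0.63 ± 0.06, edgeR adjusted p = 2.67e-10).

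The mRNAs that the ribosome translates, and the nuclear genes for subunits of the same complexes, were mostly higher with particles. Of all genes tested 36.4% were higher and 36.4% lower in NR, and 36.4% and 36.6% in SP. Of 13 mitochondrial mRNAs 8 were higher and 0 lower in NR and 9 and 0 in SP, with medians of 0.46 and 0.49. MT-ND6 lay at 439, 395 and 395 CPM in NR and at 187, 171 and 174 CPM in Ab (1.18 ± 0.05, edgeR adjusted p = 5.68e-18), and MT-ND5 was higher by 1.03 ± 0.04 (edgeR adjusted p = 1.98e-18). The 2 mitochondrial rRNAs, MT-RNR1 and MT-RNR2, were higher in NR by 0.81 ± 0.09 (edgeR adjusted p = 0.000279) and 0.18 ± 0.04 (edgeR adjusted p = 7.81e-05). How fully these libraries of poly(A) RNA captured MT-ND6 and the 2 rRNAs was not tested. As the strand setting is not given, reads from the opposite strand cannot be set apart at these genes. Of 72 nuclear-encoded subunits of oxidative phosphorylation 61 were higher and 5 lower in NR and 59 and 6 in SP, with medians of 0.79 and 0.71. COX6B1, of cytochrome c oxidase, lay at 108, 112 and 106 CPM in NR, 103, 104 and 108 CPM in SP and 35.8, 36.8 and 35.3 CPM in Ab (1.56 ± 0.06 in NR, edgeR adjusted p = 6.21e-20), and NDUFA4 was higher by 1.35 ± 0.05 (edgeR adjusted p = 1.71e-20). For the cytosolic ribosome 36 of 81 protein genes were higher and 28 lower in NR and 28 and 35 in SP, with medians of 0.04 and -0.06, near the shares over all genes. RPL7A and RPL11 were higher in NR by 0.90 ± 0.04 and 0.73 ± 0.04 (edgeR adjusted p = 2.62e-17 and 3.17e-15).

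Genes that transcribe and copy mitochondrial DNA, and regulators of mitochondrial biogenesis, were mostly lower with particles. Of 9 genes for transcription and replication of mitochondrial DNA 8 were lower and 0 higher in NR, where 36.4% of all genes were lower, and 6 and 0 in SP, where 36.6% were, with medians of -0.38 and -0.36. The mitochondrial RNA polymerase POLRMT lay at 127, 126 and 131 CPM in NR, 122, 128 and 127 CPM in SP and 190, 177 and 176 CPM in Ab (-0.53 ± 0.05 in NR, edgeR adjusted p = 6.34e-11), and the helicase TWNK was at -0.58 ± 0.06 (edgeR adjusted p = 1.97e-09). Of 9 regulators of mitochondrial biogenesis 7 were lower and 1, PPARGC1B, was higher in each particle group. GABPB1, a subunit of the ETS factor GABP, lay at 48.8, 46.2 and 49.4 CPM in NR, 47.7, 49.4 and 46.5 CPM in SP and 98.6, 114 and 111 CPM in Ab (-1.19 ± 0.06 in NR, edgeR adjusted p = 1.56e-16). NRF1 lay at 24.5, 23.8 and 24.0 CPM, 21.5, 23.0 and 22.9 CPM and 47.3, 41.6 and 43.6 CPM (-0.90 ± 0.07 in NR, edgeR adjusted p = 4.48e-12). The libraries of both genes were apart in the same way, lower with particles. Between NR and SP none of the 5 other ribosome proteins, the assembly genes, the translation factors or these 18 genes passed the adjusted p in edgeR. Of all genes tested in NR against SP, 0.443% passed it. Past it were 1 of 13 mitochondrial mRNAs, MT-ND3, higher in NR than in SP by 0.18 (edgeR adjusted p = 0.0413), and 3 of 82 cytosolic ribosomal protein genes. These were RPL11, RPL39 and RPL35A, higher by 0.21, 0.19 and 0.17 (edgeR adjusted p = 0.0168, 0.0210 and 0.0478).

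**Figure D4:**
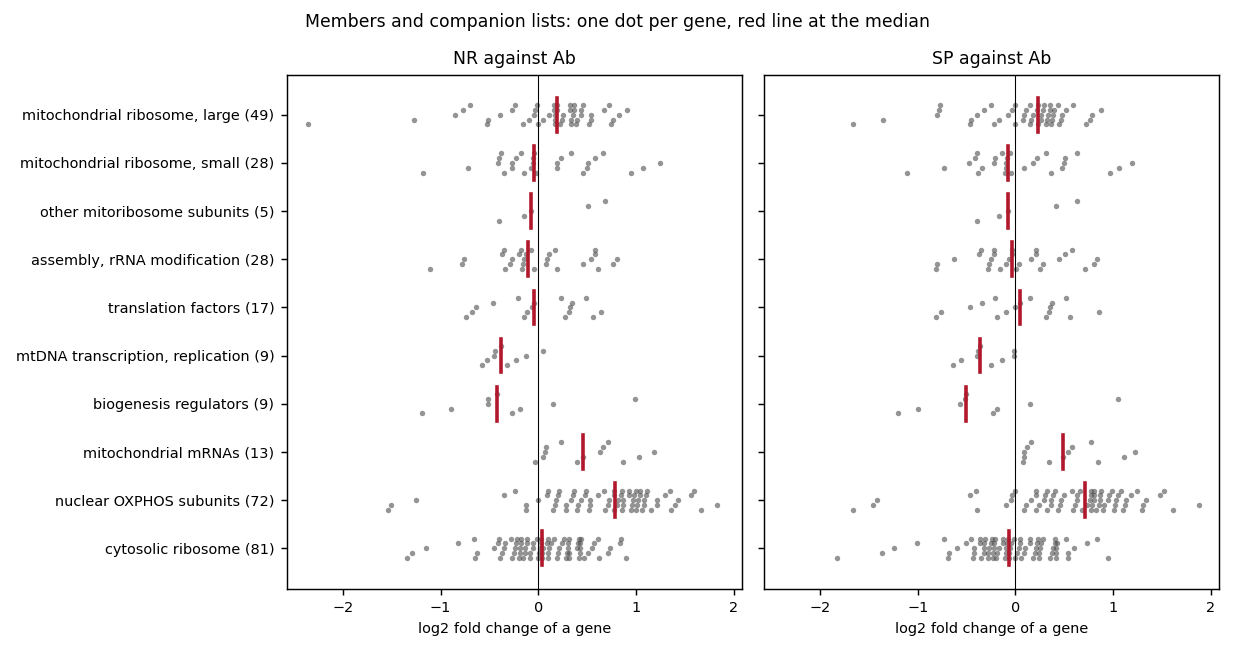
Log2 fold change (x axis) of each gene (dots) in the members and in the companion lists (rows, with the number tested in each), in NR against Ab and SP against Ab, with the median as a red line. The medians of mitochondrial mRNAs (0.46 and 0.49) and of nuclear subunits of oxidative phosphorylation (0.79 and 0.71) lie to the right of those of the ribosome's subunits, and those of mitochondrial DNA transcription and of biogenesis regulators to the left.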

How the data were processed

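The authors filtered reads, aligned them to the human genome with HISAT2 (version 2.1.0 in the submitters' processing notes, which also list DESeq2 1.16.1) and deposited whole counts per Ensembl gene, not scaled between libraries. The paper's reporting names hg19 and the processing notes name mm9, and the annotation release and strand setting are not given in the sources used here. GENCODE 44 on GRCh37 gave symbols, positions, lengths and shared exon bases, and 1022 IDs without a place in it took no more than 0.115% of the counts of any library. Each pair of groups was fitted on its 6 libraries with edgeR 4.0.16 in R 4.3.3 (TMM scaling, filterByExpr with minimum count 10 and minimum total 15, robust quasi-likelihood test, adjusted p of at most 0.05, and 2-fold where stated), and the script was tested on simulated data. The SE of an edgeR value is the size of the log2 fold change divided by the square root of the test's F statistic. It was not estimated separately, and it does not by itself give the p-value. A count of 0 allows up to 3 counts, or 0.114 to 0.216 CPM, which covers counting error only. TPM used the union of exons. The members, gene lists and motifs were chosen with earlier results of these data known. Members were named if among the 5 largest rises or falls past the test in either particle group, the 3 smallest p in NR against SP or the 3 highest or lowest levels of a subunit, or for their place or role. From companion lists, the 2 with the smallest p in NR against Ab, and all of a list of at most 5, were named. Outside this rule, AFG3L2 and SPG7 were named for their role and PPARGC1B as the 1 regulator that was higher. MT-ND3, RPL39 and RPL35A were named for passing the test in NR against SP. Alternatives were DESeq2 1.42.0, other scaling and filters, 1 fit of all 9 libraries, a replicate block, removal of a length and GC trend, and leaving out each library.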

Additional observations from a re-analysis of the deposited data

How the results depend on the processing

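Of 303 recomputed counts, medians and sums, 259 stayed within 1.5 times the count or within 1 SD of the libraries. Among the 48 members tested that share at most 10% of their exon bases with other genes, 41 passed in NR against Ab, 27 of them higher, in place of 62 and 41, as fewer members were tested. With a length and GC trend removed, the small subunit median in SP against Ab was -0.017 in place of -0.071, and the cause was not tested. With subunits as in structures, large subunit genes held 0.316%, 0.314% and 0.285% of the counts of NR, SP and Ab libraries and small subunit genes 0.175%, 0.171% and 0.173%, the ratios of shares 1.81, 1.83 and 1.65, and the ratios of TPM sums 2.11, 2.15 and 1.79, which follows from moving 2 genes into the large subunit and leaving out 1. Scaled to the TMM library size, the large subunit share in Ab was 0.266%. With the length of the canonical transcript, an alternative added after the data were seen, the ratios of TPM sums were 1.94, 1.95 and 1.68. Also added then was leaving single genes out of the small subunit sum. Small subunit shares in NR, SP and Ab were 0.189%, 0.185% and 0.177% without MRPS10, 0.175%, 0.173% and 0.184% without MRPS27 and 0.166%, 0.164% and 0.163% without both. The ratios of shares were 1.56, 1.58 and 1.48, then 1.68, 1.69 and 1.42, then 1.77, 1.79 and 1.60. The ratios of TPM sums were 1.99, 2.02 and 1.81 without MRPS10, 1.92 in SP without MRPS27, and 2.02, 2.06 and 1.83 without both. Leaving out 1 library at a time left 55 to 62 members past the threshold in NR against Ab, 56 to 61 in SP against Ab and 0 in NR against SP. The small subunit median in NR against Ab then ran from -0.058 to -0.022. In NR against SP the large subunit median ran from -0.018 to 0.042, on both sides of 0, and the small subunit median from 0.010 to 0.049. No member past the threshold in both fits changed sign in any of these alternatives. DESeq2 lost 8 of 62 calls in NR against Ab and 2 of 60 in SP against Ab. Over all genes, the number past the threshold in NR against SP was unstable. It was 66 in the main fit, 10 without NR replicate 2, 188 without SP replicate 3 and 7 with the length and GC trend removed.

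Same-numbered libraries did not deviate together (correlations of -0.03 to 0.03), so the numbers were not read as pairs. With the replicate block, 62 members passed in NR against Ab, 60 in SP against Ab and 0 in NR against SP, and no call changed. Of the 8 members with a library under 100 counts 7 were tested, and 4 passed in NR against Ab and 3 in SP against Ab. Their SE in NR against Ab ran from 0.14 to 0.33 on the log2 scale, where the median over members was 0.06.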
